A study of Mus musculus with 4 samples.

Results

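Axon guidance genes were compared between hypertrophic chondrocytes (HC) and proliferating chondrocytes (PC) of mouse forelimb cartilage. They were chosen by symbol: every protein-coding gene named as an Eph receptor, an ephrin, a semaphorin of classes 3 to 7, a plexin, a netrin, an Unc5 receptor, a Slit or a Robo receptor, which gave 66 of the 34547 genes in the deposited tables. The set held 14 Eph receptors, 8 ephrins, 20 semaphorins, 9 plexins, 4 netrins, 4 Unc5 receptors, 3 Slits and 4 Robo receptors. The HC group was 2 libraries from cartilage at stage E15.5 of embryonic development (replicates 3 and 4), and the PC group was 2 libraries at stage E14.5 (replicates 1 and 2). All libraries came from C57BL/6 mice with no stated genetic change or treatment, and the cells were cut from frozen sections with a laser. The cell state and the day of development differed together between the groups and cannot be told apart.

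Guidance molecules were first studied in growing axons, and the same ligands and receptors steer cell contacts, migration and vessel growth in other tissues. Ephrins are held at the cell surface and bind Eph receptor tyrosine kinases on a neighbouring cell, and both cells can respond. Semaphorins bind plexins, with neuropilins as coreceptors for most of the secreted class 3. Netrins bind Dcc, neogenin and Unc5 receptors, and Slits bind Robo receptors. In the growth plate, chondrocytes stop dividing, enlarge, mineralise their matrix and are then replaced by bone as vessels and nerves enter. Several of these genes have known skeletal roles, among them Efnb2 and Ephb4 in contacts between osteoclasts and osteoblasts, and Sema4d and Sema3a in bone formation.

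The libraries held 15246529 and 21866266 estimated counts in HC, against 30373440 and 36644496 in PC. A floor of 3 counts corresponded to 0.244 and 0.135 CPM, the counts scaled to a common library size, in the HC libraries and to 0.0872 and 0.0778 CPM in the PC libraries. Mitochondrial genes took 20.16% and 14.11% of counts in HC against 8.81% and 13.15% in PC, and the median effective minus annotated transcript length, a sign of fragment size, was -124.7 and -145.5 bases in HC against -172.8 and -153.3 bases in PC. All 8 hypertrophic markers were higher in both HC libraries than in both PC libraries, with a summed level of 34206 and 41510 CPM in HC against 397 and 1822 CPM in PC. The 8 chondrocyte markers summed to 32572 and 37807 CPM in HC against 51248 and 41934 CPM in PC. Markers of other cell types were also higher in HC. Osteoblast and perichondrium markers summed to 13502 and 4700 CPM in HC against 821 and 1296 CPM in PC, muscle markers to 477 and 96.5 CPM against 9.68 and 16.7 CPM, and red blood cell markers to 305 and 283 CPM against 20.7 and 39.4 CPM. HC replicate 3 was the higher of the HC pair for each of these 3 lists. Endothelial markers summed to 247 and 132 CPM in HC against 25.4 and 22.9 CPM in PC, and macrophage and osteoclast markers to 114 and 53.8 CPM against 5.23 and 9.73 CPM. The 7 endothelial markers that could be tested were each higher in both HC libraries, and Cldn5 was at 0 in HC replicate 3 and in both PC libraries. Neuron markers stayed low, at 13.2 and 6.3 CPM in HC against 3.14 and 5.32 CPM in PC, and Schwann cell markers were at 20.5 and 35.7 CPM against 26.4 and 25.7 CPM. The members of these 2 lists went in both directions. Of the 4 neuron markers tested, 2 had both HC libraries above both PC libraries and 1 had them below. Of the 6 Schwann cell markers tested, 1 had them above and 4 below. Of the markers tested, all 7 of macrophages and osteoclasts and 5 of 6 of muscle had both HC libraries above both PC libraries. C1qa, a macrophage gene, and Myod1, a muscle regulator, had too few counts to test and went the other way. Both were at 0 in HC replicates 3 and 4, against 2 and 11 counts of C1qa and 1 and 5 of Myod1 in PC. The part of RNA quality and of these cell types in the guidance results was not tested. In such bulk libraries fewer cells of a type and less RNA per cell cannot be told apart.

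**Figure D1:**
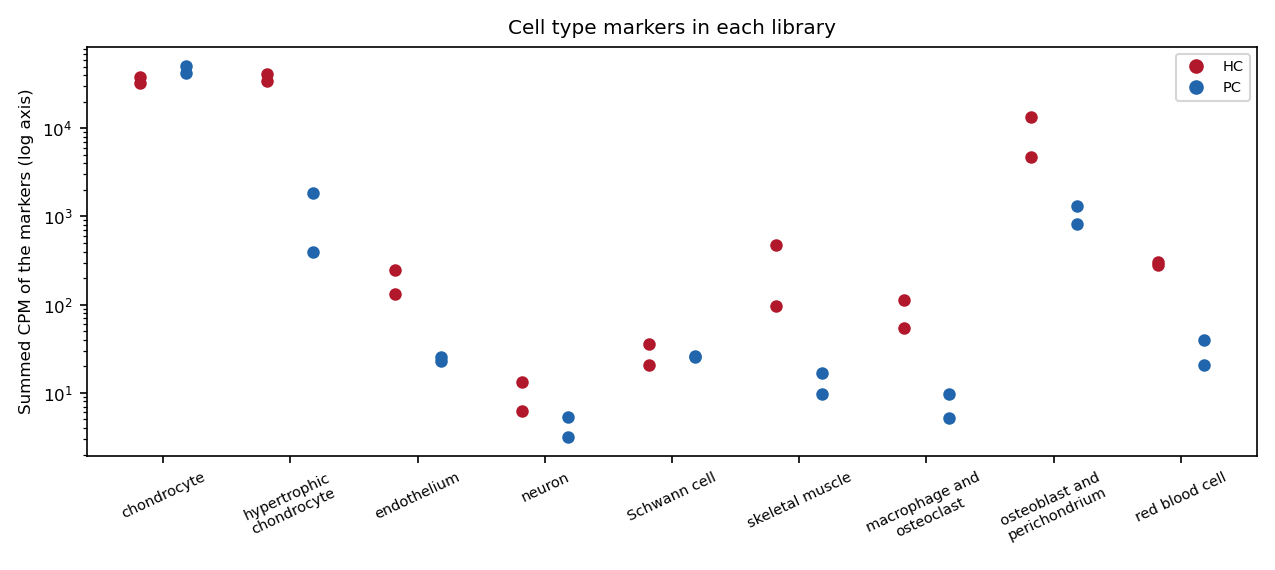
Summed CPM of the markers of 9 cell types, on a log axis, with 1 point for each library of HC and PC. Hypertrophic markers were at 34206 and 41510 CPM in HC and 397 and 1822 CPM in PC, and the markers of endothelium, muscle, macrophages and osteoclasts, bone and blood were also higher in both HC libraries.

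The HC libraries had more RNA of a subset of guidance genes. At the adjusted edgeR threshold most of these were ligands, which did not hold at the unadjusted p given further below. Of the 62 guidance genes with enough counts to test, 11 rose in HC and 1 fell (edgeR quasi-likelihood F-test, Benjamini-Hochberg adjusted p under 0.05 over all genes). This was 17.7% and 1.61% of them, where 2.75% of all 16607 genes tested rose, 1.96% fell and 4.71% passed in either direction. The genes that rose were the ligands Efna1, Efna5, Sema4d, Sema5a, Sema6d, Ntn4, Slit2 and Slit3 and the receptors Epha2, Ephb1 and Unc5b. The receptor Ephb3 fell. Both HC libraries lay above both PC libraries for 27 of the 62 and below for 22, where 27.7% and 33.3% of all genes tested did so and 61% had groups that did not overlap. The median log2 fold change of HC over PC was 0.19, against -0.04 over all genes tested, and the median absolute change was 1.66 against 0.82. For 13 of the 62 genes only the PC libraries both met the count minimum, so at least 1 HC value was low by construction. For 1, Robo4, only the HC libraries both met it. Plxnb3, Robo3, Epha6 and Ntn5 had too few counts in either group. The labels do not say that the 2 libraries of a group came from separate animals, so the p-values measure only the spread between these libraries.

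The number of calls moved with the settings. Leaving out 1 library at a time gave 19 guidance genes higher and 16 lower when it was HC replicate 3, and 20 and 21 when it was HC replicate 4. Such a fit leaves a group of 1 library, which is assumed to vary like the other group, and calls over all genes also went up, to 2378 higher and 2774 lower and to 3331 higher and 3775 lower. A call made in such a fit alone is therefore not counted here. Without PC replicate 1, Efna1, Efna5 and Ephb3 no longer passed, with adjusted p of 0.242, 0.1 and 0.111. DESeq2 called 19 higher and 13 lower, where 10.3% and 9.2% of all genes were called. With library size as the only scaling, with TPM in place of counts, or with protein-coding transcripts alone (chosen after seeing the data), no gene of the whole table passed, and the 12 genes kept their direction.

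**Figure D2:**
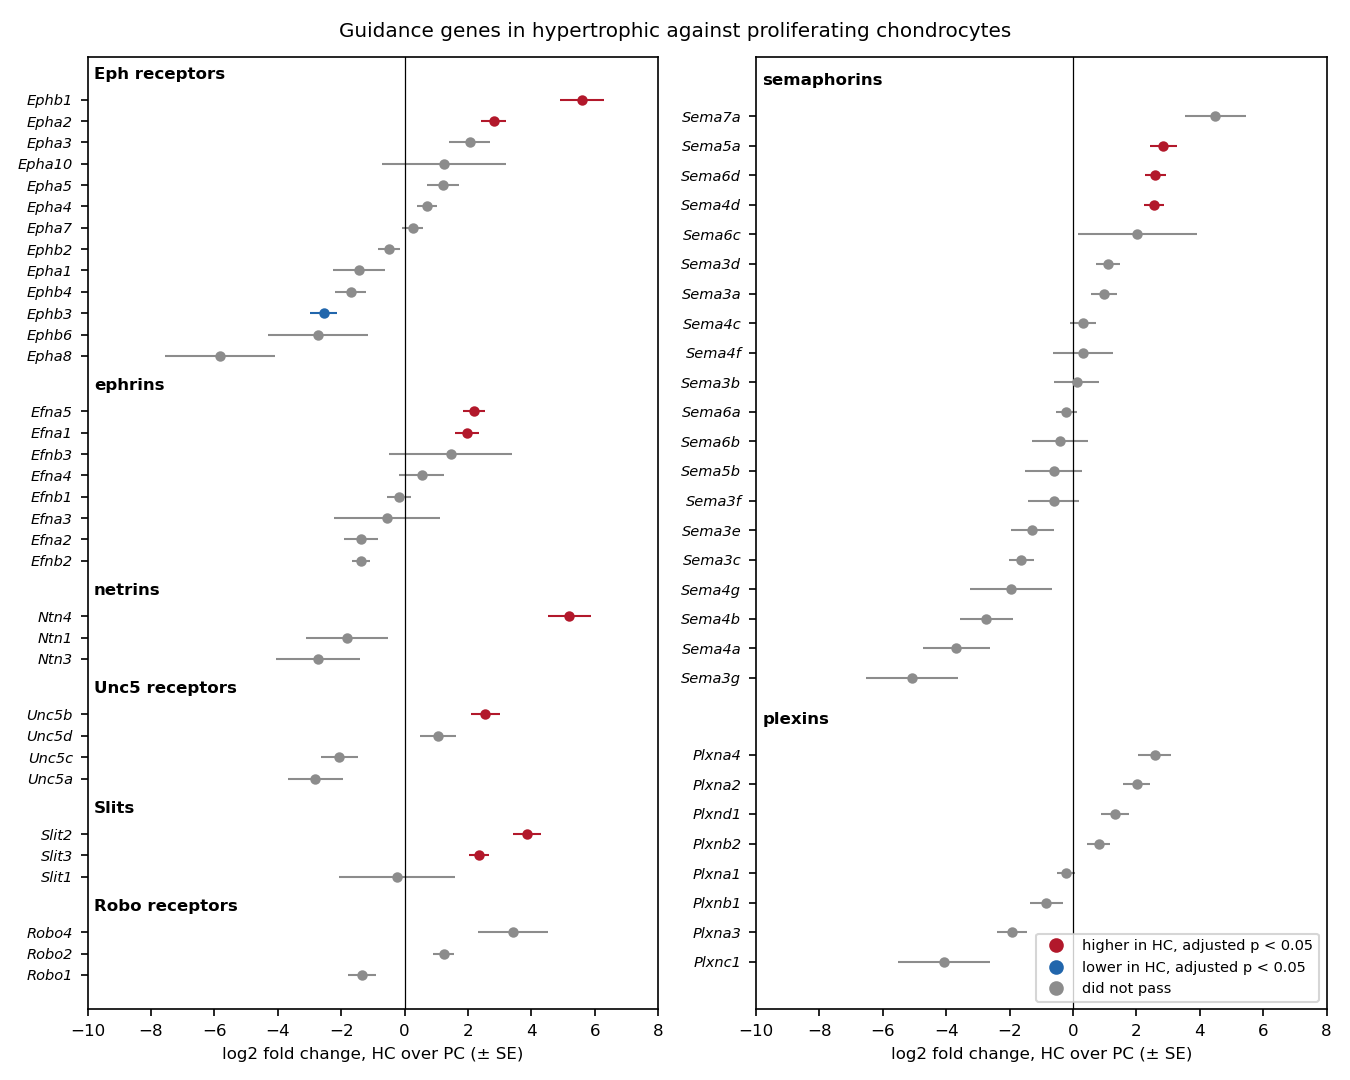
The log2 fold change of HC over PC for the 62 guidance genes tested, by family, with bars of 1 standard error. Red points passed the test and were higher in HC (11), the blue point was lower (Ephb3), and grey points did not pass. The widest bars belong to genes with few counts, such as Epha10 and Efnb3.

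**Figure D3:**
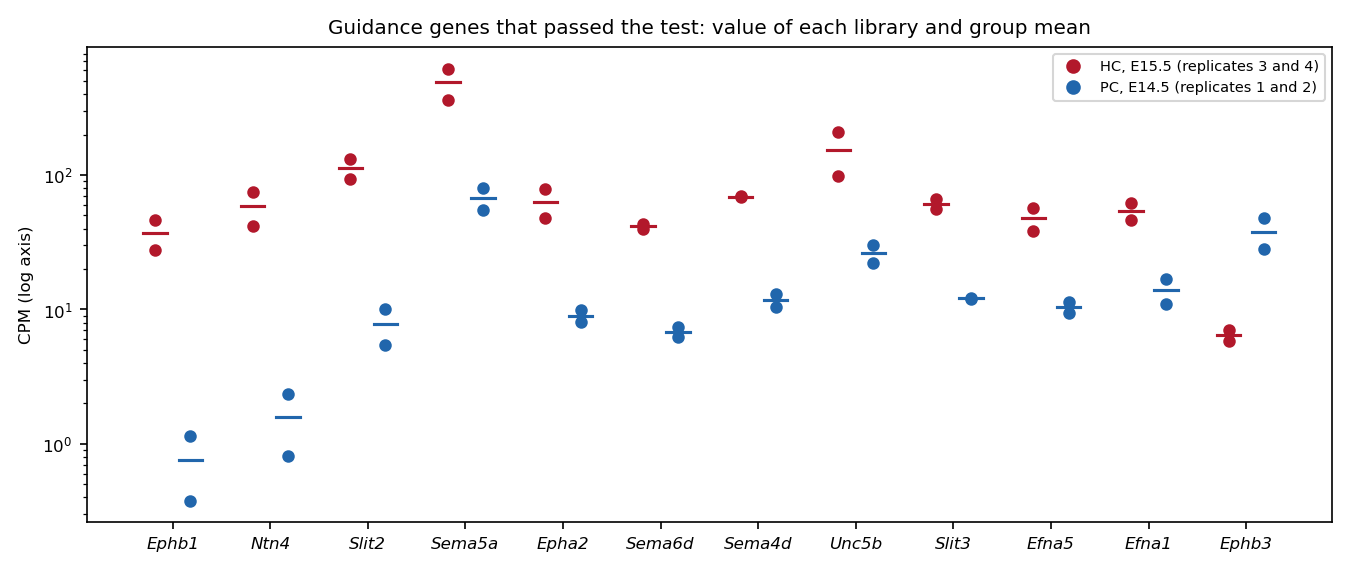
CPM on a log axis for the 12 guidance genes that passed the test, with a point for each library and a line at the mean of each group. HC stands left of PC for each gene. The HC and PC points of a gene do not overlap, and Ephb3 is the one gene whose HC points, 5.85 and 7.07 CPM, are the lower pair.

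The 3 genes with the largest increases were Ephb1, Ntn4 and Slit2. Their promoters are shown because these genes changed most among those that passed. Each line holds the 250 bases before and 50 bases after the annotated start (RefSeq, GRCm38.p6), on the strand of the gene, in lower case. Capitals mark matches to 5 short motifs searched on both strands. These were the letters TGTGGT for Runx factors, which drive chondrocyte maturation, and AACAAT for Sox factors, which keep chondrocytes in their early state. The other motifs were that of Mef2 factors (by its name alone), TGANTCA for the AP-1 family and TATAAA for the TATA box.
Ephb1, chr9:102354644-102354943, minus strand: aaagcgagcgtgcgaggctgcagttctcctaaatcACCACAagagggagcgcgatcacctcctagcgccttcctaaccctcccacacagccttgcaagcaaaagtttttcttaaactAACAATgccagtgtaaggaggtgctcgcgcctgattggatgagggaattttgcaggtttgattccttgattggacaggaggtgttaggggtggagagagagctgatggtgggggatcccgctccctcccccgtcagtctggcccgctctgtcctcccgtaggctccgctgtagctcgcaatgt
Ntn4, chr10:93640799-93641098, plus strand: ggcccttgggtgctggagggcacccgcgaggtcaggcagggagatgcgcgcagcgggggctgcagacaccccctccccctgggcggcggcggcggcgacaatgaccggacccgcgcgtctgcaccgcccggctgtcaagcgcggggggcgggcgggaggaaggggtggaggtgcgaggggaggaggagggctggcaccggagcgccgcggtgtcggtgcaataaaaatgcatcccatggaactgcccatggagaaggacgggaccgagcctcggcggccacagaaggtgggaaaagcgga
Slit2, chr5:47982905-47983204, plus strand: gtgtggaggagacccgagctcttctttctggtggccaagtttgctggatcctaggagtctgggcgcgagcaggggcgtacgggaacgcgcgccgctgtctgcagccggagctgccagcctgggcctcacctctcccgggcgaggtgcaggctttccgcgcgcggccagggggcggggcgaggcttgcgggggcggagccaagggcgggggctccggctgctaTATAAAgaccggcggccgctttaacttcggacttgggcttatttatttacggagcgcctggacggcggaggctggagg
The Ephb1 window had a Runx match, on the opposite strand, beginning 215 bases before the start, and a Sox match 133 bases before it. The Slit2 window had a TATAAA match 28 bases before the start, and the Ntn4 window had none of the 5. GC content was 55.7% for Ephb1, 72.0% for Ntn4 and 68.0% for Slit2, where the median was 64.3% over 73 promoters of 57 guidance genes and 52.7% over all 32851 promoters. Of the 11 genes that rose, Ephb1, Sema4d and Sema6d had TGTGGT, as did 9 of the 57 guidance genes and 16.8% of all promoters. Ephb1 and Sema4d had AACAAT, against 3 of the 57 and 10.7% of all. Sema4d also had the Mef2 motif and TGANTCA, which occurred in 3.69% and 7.81% of all promoters and in 1 and 3 of the 57. TATAAA occurred in 13.6% of all promoters, in 2 of the 57, and among the genes that rose in Slit2 alone. The guidance genes are counted here as genes, 57 genes with 73 promoters, while the shares of all are per promoter, so the 2 measures are not alike. A match describes letters in a window and not a bound factor, and these shares were not tested.

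Among the ephrins, 2 of the 5 A-class genes rose, and no B-class gene passed. Efna1, a surface-anchored ligand of EphA receptors (chr3:89271733-89281142, minus strand), had 62.4 and 46.0 CPM in HC against 10.9 and 16.9 CPM in PC. It rose by a log2 fold change of 1.96 ± 0.38 (SE; adjusted p = 0.0483). Efna5, a related ligand (chr17:62604184-62881317, minus strand), had 38.5 and 56.5 CPM in HC against 9.39 and 11.4 CPM in PC, a log2 fold change of 2.19 ± 0.36 (adjusted p = 0.0394). For both genes the HC libraries lay above the PC libraries, and both are among the calls lost without PC replicate 1. Efnb2, the transmembrane ligand that marks arterial endothelium and also acts in bone cells, had 38.5 and 39.8 CPM in HC against 106 and 96.0 CPM in PC. Its groups did not overlap, and its change of -1.37 ± 0.28 did not pass (adjusted p = 0.0537, with 0.000501 to 0.317 over the alternatives). Efnb1, the X-linked B ephrin known from craniofacial and limb skeleton, had 26.9 and 46.9 CPM in HC against 47.5 and 36.0 CPM in PC, and the groups overlapped. On the length-scaled TPM measure, which allows genes to be added, the 5 ephrin-A genes summed to 49.1 and 78.4 in HC against 33.8 and 34.5 in PC, and the 3 ephrin-B genes to 23.7 and 35.9 in HC against 77.3 and 62.7 in PC. Neither sum overlapped between the groups. The difference between the classes was not tested. Efna2, Efna3, Efna4 and Efnb3 did not pass, with at most 13.6 CPM in any library and log2 fold changes between -1.37 and 1.45.

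Ephb1, a receptor for B ephrins (chr9:101922128-102354693, minus strand), had 46.3 and 27.9 CPM in HC against 0.378 and 1.14 CPM in PC. Both HC libraries were far above both PC libraries, and the log2 fold change was 5.59 ± 0.69 (adjusted p = 0.0359). The counts were not assigned to the complete receptor in HC. All HC estimated counts of the gene, 570 and 620, were assigned to the transcript Ephb1-203, and none to the other 5 annotated transcripts, which include both longer coding ones, Ephb1-201 and Ephb1-202. In PC, Ephb1-203 had 11.4 and 38.9 estimated counts, and Ephb1-202, with 943 codons, had 2 and 5.31. Ephb1-201 was at 0 in all 4 libraries.

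Ephb1-201 has 16 exons and encodes 984 amino acids, whereas Ephb1-203 has 5 exons and an open reading frame of 456 codons. The first 4 exons are identical, and in Ephb1-203 the fifth runs on for 1820 bases into what is an intron of Ephb1-201 (chr9:102039192-102041011, GRCm38). The line below shows where they part, because it is where the short transcript leaves the frame of the receptor. It gives the last 30 shared bases in lower case and the continuation of Ephb1-203 as far as its stop codon, TAG, in capitals.
Ephb1-203, chr9:102040938-102041041, minus strand: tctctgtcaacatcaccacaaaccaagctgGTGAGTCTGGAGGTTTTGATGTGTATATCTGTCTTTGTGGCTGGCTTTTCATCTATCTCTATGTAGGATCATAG
The stop lies 74 bases into the continuation. The kinase domain of Eph receptors lies toward the C terminus, past this point. The deposited estimates do not show whether reads fell on the shared exons or on the continuation, and the sequence was read from the GENCODE annotation and not from these libraries. A lincRNA, Gm26846, overlaps 152 bases of Ephb1 exons on the opposite strand and was not in the tables, and with no strand setting given its reads cannot be told apart from those of Ephb1.

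The other Eph receptors went in both directions. Of all Eph receptors, DESeq2 called 3 higher and 3 lower, where it called 10.3% and 9.2% of all genes. Epha2, an ephrin-A receptor (chr4:141301240-141329384, plus strand), had 48.3 and 78.4 CPM in HC against 8.08 and 9.94 CPM in PC. It rose by 2.81 ± 0.39 (adjusted p = 0.0359), with no overlap. Of its estimated counts, 294 and 509 in HC and 70.1 and 133 in PC were on Epha2-204, a short transcript with no annotated reading frame, and 300 and 1233 in HC and 206 and 250 in PC were on the coding Epha2-201. Ephb3, a receptor of B ephrins (chr16:21204755-21223305, plus strand), had 5.85 and 7.07 CPM in HC against 47.7 and 28.0 CPM in PC. It fell by 2.55 on the log2 scale (SE 0.42, adjusted p = 0.0392), and the HC libraries were both below the PC libraries.

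Ephb4, the receptor through which Efnb2 acts in vessels and osteoblasts, had 13.7 and 24.4 CPM in HC against 82.8 and 41.1 CPM in PC. Its change of -1.70 ± 0.48 did not pass (adjusted p = 0.0963), although the groups did not overlap, and 33 bases of its exons are shared with Zan on the other strand. Ephb2 had 25.8 and 34.7 CPM in HC against 50.4 and 34.7 CPM in PC, with HC replicate 4 and PC replicate 2 nearly level (-0.49 ± 0.35, adjusted p = 0.422). Epha8 had 1 and 0 counts in HC against 112 and 39 in PC and did not pass (adjusted p = 0.103), and it is among the 13 genes that could be tested through PC alone. The remaining 7 receptors that were tested, Epha1, Epha3, Epha4, Epha5, Epha7, Epha10 and Ephb6, did not pass and changed by between -2.73 and 2.05 on the log2 scale. For Epha4, the estimated counts sat on Epha4-201 in PC (17.4 and 28.2 in HC against 556 and 562 in PC) and on Epha4-205 in HC (220 and 474 in HC against 0.401 and 48.2 in PC). These 2 transcripts differ in length by 13 bases and have the same coding exons, but Epha4-205 is annotated as a target of nonsense-mediated decay. Transcripts annotated as protein-coding held 25.5% and 16.5% of Epha4 counts in HC against 93.7% and 86.5% in PC. Summed over the 5 EphB genes, TPM was 26.1 and 44.5 in HC against 80.8 and 46.1 in PC, with HC replicate 4 close to PC replicate 2. Over the 9 EphA genes it was 48.3 and 86.7 in HC against 30.1 and 32.3 in PC. Of the EphA sums, 22.5 and 34.4 TPM in HC against 3.82 and 5.53 TPM in PC were on Epha2-204, which has no reading frame. From coding transcripts alone, the EphA sum of HC replicate 3 was close to those of PC, and only HC replicate 4 was above.

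**Figure D4:**
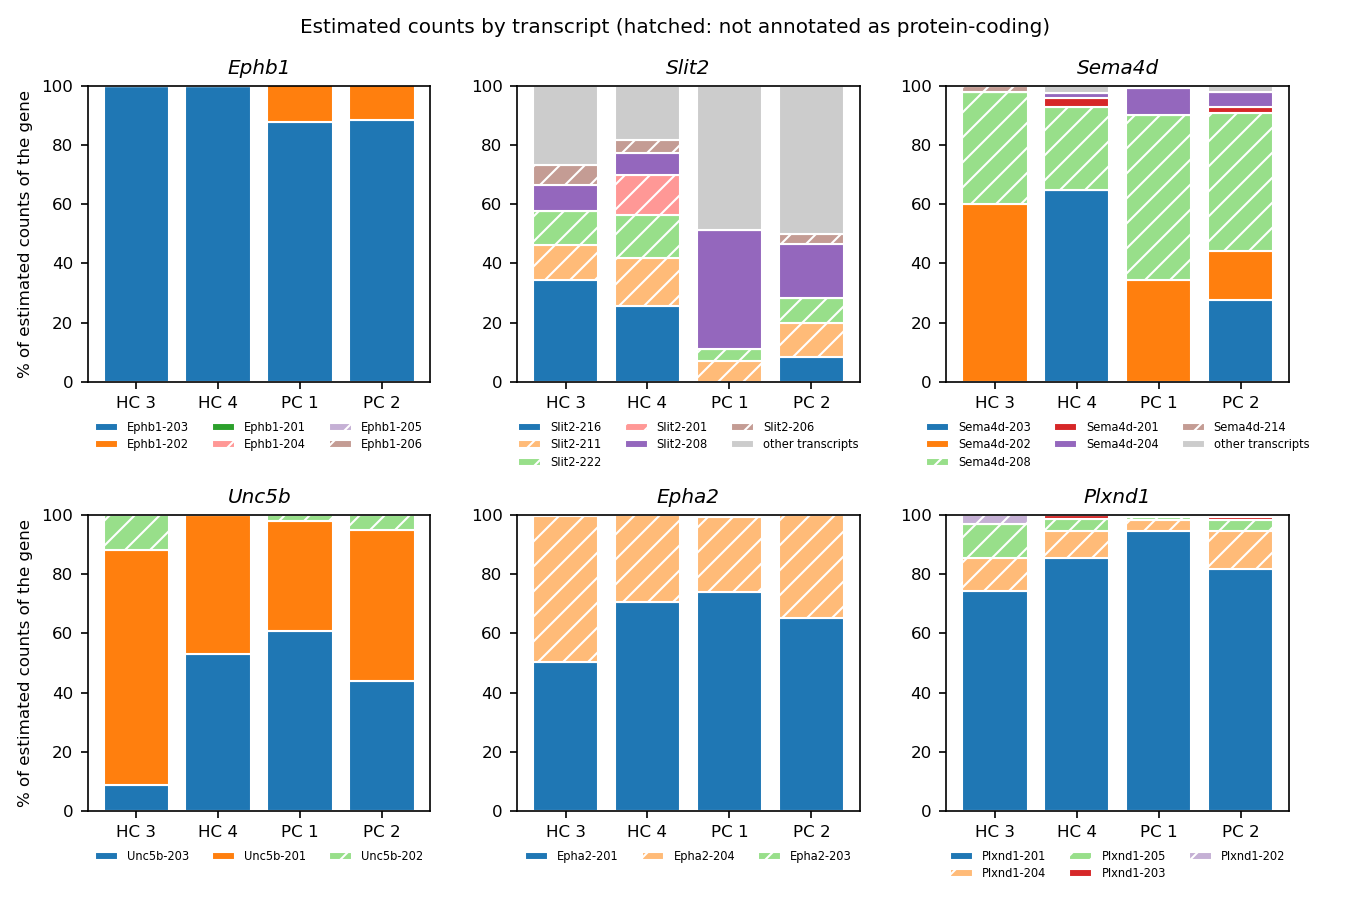
Share of a gene's estimated counts, in percent, assigned to each annotated transcript in each library, for 6 guidance genes. Hatched bars are transcripts not annotated as protein-coding. Ephb1-203 takes all counts in both HC libraries, and Slit2, Sema4d, Epha2 and Plxnd1 have sizeable shares on hatched transcripts in all or most libraries.

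Among the semaphorins, 3 of 20 rose and none fell by edgeR. At an unadjusted p under 0.05, 4 were lower in HC, where 14.4% of all genes tested were, and DESeq2 called 5 higher and 4 lower. Of those 4 at the unadjusted p, Sema3g and Sema4a could be tested through PC alone. Sema5a, a transmembrane semaphorin with thrombospondin repeats (chr15:32244810-32696341, plus strand), had 361 and 618 CPM in HC against 55.1 and 80.7 CPM in PC. It rose by 2.85 ± 0.42 (adjusted p = 0.0370), and its 1 annotated transcript carried all of its counts. Sema4d, a membrane ligand that osteoclasts use to restrain osteoblasts (chr13:51685529-51793747, minus strand), had 68.5 and 69.6 CPM in HC against 10.5 and 13 CPM in PC. It rose by 2.55 ± 0.31 (adjusted p = 0.0359), with the libraries of each group close together. Its coding transcripts carried 59.9% and 69.8% of its counts in HC against 43.6% and 51.4% in PC, and its change from these alone was 3.05. Much of the rest was on Sema4d-208, a 642-base transcript with no reading frame. Sema6d, a ligand of Plxna1 in the developing chick heart (chr2:124089969-124667770, plus strand), had 39.9 and 43.0 CPM in HC against 6.25 and 7.45 CPM in PC. It rose by 2.60 ± 0.33 (adjusted p = 0.0359), again with no overlap. Acp5 and other osteoclast markers were higher in HC too, as given above, and their part in the Sema4d result was not tested.

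Sema7a, a ligand anchored in the membrane by a lipid, had 12.3 and 72.6 CPM in HC against 1.13 and 2.62 CPM in PC. Both HC libraries were above both PC libraries but differed from each other about as much as the lower one differed from PC, and the change of 4.49 ± 0.97 did not pass (adjusted p = 0.0597, with 8.42e-07 to 0.175 over the alternatives). Its change was 5.23 with HC replicate 3 left out and 2.65 with HC replicate 4 left out. Sema3d, a secreted semaphorin, had the highest TPM of the guidance genes in HC replicates 3 and 4, at 114 and 153, against 34.9 and 88.7 in PC. Most of that TPM, 86.0% and 80.6% in HC against 47.8% and 75.8% in PC, was on Sema3d-203, a 708-base transcript with no reading frame. In CPM the gene had 179 and 184 in HC against 60.8 and 108 in PC, and the change of 1.10 ± 0.37 did not pass (adjusted p = 0.128). Sema3c, a secreted ligand of the neuropilins, had 7.31 and 12 CPM in HC against 32.2 and 27.7 CPM in PC, below in both HC libraries, and did not pass (-1.63 ± 0.40, adjusted p = 0.0755).

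Sema6a, a transmembrane ligand of A plexins, had 187 and 119 CPM in HC against 173 and 184 CPM in PC, and the groups overlapped (-0.22 ± 0.33, adjusted p = 0.717). Sema3g, known from arterial endothelium, had 0 and 2 counts in HC against 69 and 72 in PC. It is among the 13 genes that could be tested through PC alone, and it did not pass (adjusted p = 0.0965). The 12 other semaphorins did not pass and changed by between -3.68 (Sema4a) and 2.03 (Sema6c) on the log2 scale. Sema3a, which protects bone mass, was among these, at 19.7 and 13.2 CPM in HC against 7.32 and 9.37 CPM in PC. By class, summed TPM of the 2 class 5 genes was 27.2 and 71.9 in HC against 9.1 and 10.5 in PC. That of the 6 class 4 genes was 57.1 and 83.9 in HC against 38.1 and 27.7 in PC. Most of the class 4 sum in HC, 40 and 48.4 TPM, was on Sema4d-208, which had 18.6 and 16.2 TPM in PC. From coding transcripts alone, the class 4 sums overlapped between the groups.

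No plexin passed edgeR's test, out of 8 that could be tested, of which 5 had an unadjusted p under 0.05, where 27% of all genes tested did, and DESeq2 called 3 higher and 2 lower. Plxna4, a receptor for class 3 semaphorins and Sema6a, had 14.8 and 33.8 CPM in HC against 4.10 and 4.05 CPM in PC, without overlap (2.58 ± 0.52, adjusted p = 0.0534). Plxnc1, the receptor of Sema7a, had 0 and 8 counts in HC against 119 and 126 in PC, and did not pass either (-4.07 ± 1.44, adjusted p = 0.143). Plxnc1, among those with an unadjusted p under 0.05, could be tested through PC alone. Plxnd1, the endothelial receptor of Sema3e, had 92.2 and 189 CPM in HC against 69.3 and 43.7 CPM in PC (1.32 ± 0.45, adjusted p = 0.136). Its HC libraries were both above PC, as were the endothelial markers, and the part of endothelial cells was not tested. Coding transcripts alone gave Plxnd1 8.05 and 34.9 TPM in HC against 14.7 and 7.96 TPM in PC, with overlap. Plxnb2, a receptor of class 4 semaphorins, had 296 and 479 CPM in HC against 236 and 205 CPM in PC (0.81 ± 0.36, adjusted p = 0.212). In TPM its groups overlapped, at 38.3 and 142 in HC against 66.2 and 54.3 in PC. Plxnb1, the main receptor of Sema4d, had 24.4 and 54.7 CPM in HC against 95.5 and 45.9 CPM in PC, and Plxna1 had 145 and 118 CPM in HC against 163 and 144 CPM in PC, with overlap in both cases. Plxna2, with a log2 fold change of 2.01, and Plxna3, with -1.92, did not pass.

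Of the netrins, Ntn4 rose. Ntn4, a laminin-like netrin found in basement membranes (chr10:93640681-93747207, plus strand; promoter above), had 42.0 and 74.7 CPM in HC against 0.814 and 2.34 CPM in PC. Both HC libraries were far above both PC libraries, and the change was 5.20 ± 0.67 (adjusted p = 0.0359). Nearly all of it was on the full transcript Ntn4-201, with 502 and 1660 estimated counts in HC against 27.6 and 89.3 in PC. Ntn1, the classical floor plate netrin, and Ntn3 were low, with at most 11.9 CPM in any library, and did not pass.

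The Unc5 receptors had opposite values. Unc5b, a netrin receptor of endothelial and other cells (chr10:60762593-60831581, minus strand), had 98.4 and 207 CPM in HC against 30.3 and 22.3 CPM in PC. It rose by 2.54 ± 0.46 (adjusted p = 0.0439), and without HC replicate 4 by 1.86. Unc5c, known for its role in cerebellar and motor axon guidance, had 201 and 63.3 CPM in HC against 526 and 576 CPM in PC. The HC libraries lay below the PC libraries but differed widely from each other, and the change of -2.06 ± 0.58 did not pass (adjusted p = 0.0940). With 1 library left out at a time, its change ran from -3.15 to -1.50. In TPM, Unc5c was the highest guidance gene of the PC libraries, at 23.3 and 16.7 in HC against 148 and 146 in PC, so that the 4 Unc5 genes summed to 38.5 and 77.4 in HC against 169 and 159 in PC. Unc5a and Unc5d were at 7.06 CPM or less in every library and did not pass. Unc5a had 0.568 and 0.54 CPM in HC against 4.94 and 2.91 CPM in PC (-2.81 ± 0.87, adjusted p = 0.110). DESeq2 called 1 Unc5 receptor higher and 2 lower, where it called 10.3% and 9.2% of all genes.

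Of the Slits, 2 of 3 rose, and none of the 3 Robo receptors tested passed edgeR's test. Each Robo receptor tested had an unadjusted p under 0.05, where 27% of all genes tested did, and DESeq2 called 2 higher and 1 lower. Among them, Robo4 could be tested through HC alone, the group where it was higher. Slit2, a secreted Robo ligand (chr5:47983138-48307733, plus strand; promoter above), had 133 and 93.2 CPM in HC against 5.46 and 10.1 CPM in PC. It rose by 3.86 ± 0.45 (adjusted p = 0.0359), with no overlap. Its counts were spread over many transcripts, led in HC by the coding Slit2-216, with 559 and 527 estimated counts in HC against 0 and 31.9 in PC, and its change from coding transcripts alone was 3.58. Slit3, a second secreted Slit known from bone and vessels (chr11:35121224-35708507, plus strand), had 66.7 and 55.8 CPM in HC against 12.1 and 12 CPM in PC. It rose by 2.34 ± 0.31 (adjusted p = 0.0359), with each group's libraries close together. Slit1 was at 3.82 CPM or less in every library. Summed TPM of the 3 Slits was 68.1 and 63.5 in HC against 7.3 and 9.3 in PC.

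Robo2, a neural and kidney Slit receptor, had 107 and 75.4 CPM in HC against 33.0 and 44.8 CPM in PC, above in both HC libraries, and did not pass (1.23 ± 0.34, adjusted p = 0.0912). Robo1, expressed in many tissues, had 27.4 and 12.4 CPM in HC against 47.8 and 51.8 CPM in PC, and did not pass (-1.33 ± 0.44, adjusted p = 0.128). Robo4, the endothelial member, had 6.33 and 3.74 CPM in HC against 0.145 and 0.779 CPM in PC (3.42 ± 1.09, adjusted p = 0.114). The endothelial markers Cdh5 and Kdr rose as well, with log2 fold changes of 4.38 and 3.57, and their part in the Robo4, Unc5b and Slit values was not tested. The 4 Robo genes summed to a TPM of 19.2 and 21.8 in HC against 20.0 and 21.3 in PC.

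**Figure D5:**
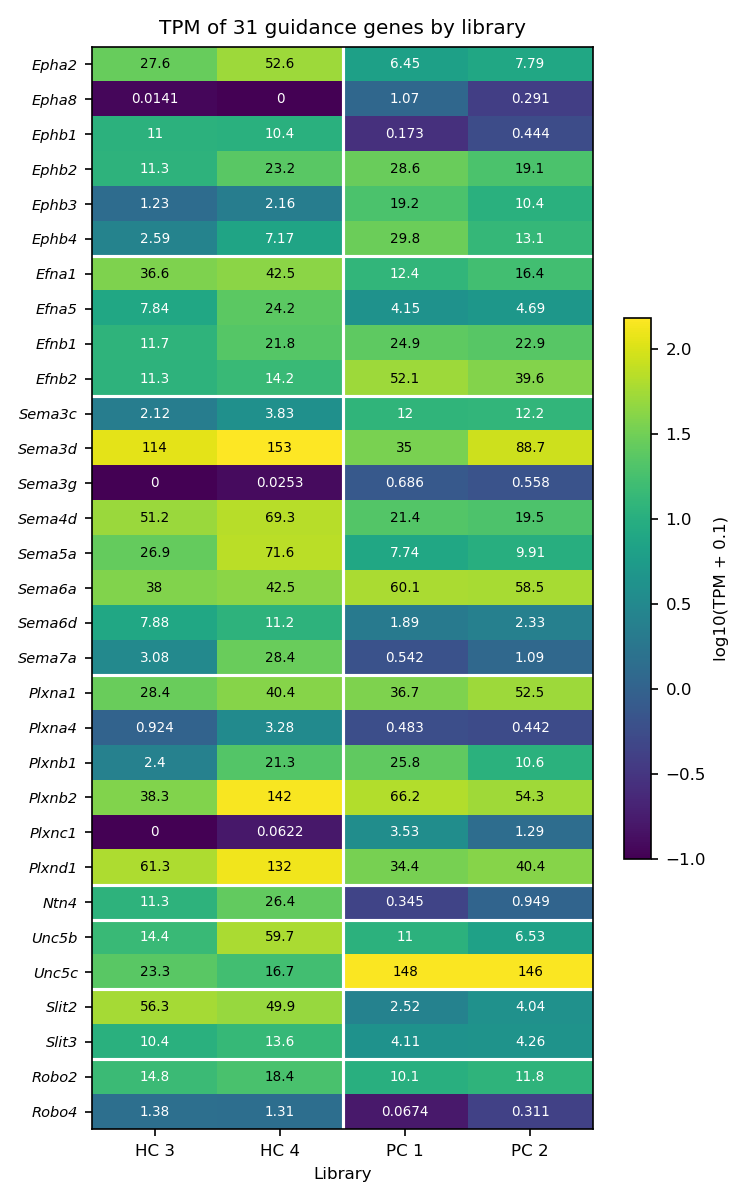
TPM of the 31 guidance genes described singly, by library, with families set apart by white lines and colour on a log10(TPM + 0.1) scale. Sema3d, Plxnb2, Plxnd1 and Sema4d are the brightest rows in HC, and Unc5c is the brightest in PC, at 148 and 146 TPM against 23.3 and 16.7 TPM in HC. The values include transcripts not annotated as coding, which hold most of the HC level of Sema3d, Plxnd1 and Sema4d.

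Summed levels of all guidance genes overlapped between the groups, with 688 and 1212 TPM in HC against 789 and 755 TPM in PC. Ligands summed to 419 and 626 TPM in HC against 309 and 325 TPM in PC, without overlap. Receptors summed to 269 and 586 TPM in HC against 480 and 430 TPM in PC, with overlap. The ligand sums include transcripts not annotated as coding, such as Sema3d-203, at 97.9 and 124 TPM in HC against 16.7 and 67.3 TPM in PC. From coding transcripts alone, the ligand sums overlapped between the groups. Ligands made up 8 of the 11 genes that rose, from 34 ligands and 28 receptors tested. At an unadjusted edgeR p under 0.05, 10 ligands and 9 receptors were higher in HC, where 12.7% of all genes tested were. At that p, 6 ligands and 8 receptors were lower, where 14.4% of all genes tested were. The difference between ligands and receptors was not tested. Among the genes that rose, Sema4d at 51.2 and 69.3 TPM and Slit2 at 56.3 and 49.9 TPM had the highest mean levels in HC, against 21.4 and 19.5 TPM for Sema4d and 2.52 and 4.04 TPM for Slit2 in PC. Much of this was on transcripts not annotated as coding. From coding transcripts alone, Sema4d had 7.62 and 15.0 TPM in HC against 2.62 and 2.65 TPM in PC, and Slit2 had 14.2 and 5.85 TPM in HC against 0.508 and 1.01 TPM in PC. On that measure the highest mean in HC among the genes that rose was that of Sema5a, with 26.9 and 71.6 TPM in HC against 7.74 and 9.92 TPM in PC. Ephb1 had 11 and 10.4 TPM in HC against 0.173 and 0.444 TPM in PC.

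Genes that act with these ligands and receptors were read from 4 lists of coreceptors and effectors, of which 94 were tested. In HC, 10 rose and 2 fell, where 2.75% and 1.96% of all genes tested did, so the number that fell was near the background. Of the 21 coreceptors and further ligands, 2 rose and 1 fell. Nrp1, the coreceptor of class 3 semaphorins and of vascular endothelial growth factor, had 90.6 and 118 CPM in HC against 24.8 and 27.0 CPM in PC, and rose by 2.01 ± 0.31 (adjusted p = 0.0370). Nrp2 was above in both HC libraries and did not pass (2.41 ± 0.51, adjusted p = 0.0579). Gpc1, a glypican that can bind Slit, rose by 2.38. Rgma, a ligand of neogenin, had 8.28 and 14.4 CPM in HC against 63.6 and 74.4 CPM in PC, and fell by 2.60 on the log2 scale. Its receptor Neo1 did not pass, at 326 and 504 CPM in HC against 334 and 334 CPM in PC, and the netrin receptor Dcc was at 6.49 CPM or less in every library.

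Of 24 Eph and ephrin effectors, 4 rose and 1 fell. Vav3, an exchange factor for small GTPases, had 38.5 and 97.2 CPM in HC against 2.56 and 4.52 CPM in PC, and rose by 4.26 ± 0.61. Kalrn, another exchange factor, rose by 3.01, Chn1, a Rac-inactivating protein, by 2.41 and Ptpn13, a phosphatase, by 2.37. Tiam1, a Rac exchange factor, had 56.0 and 30.8 CPM in HC against 248 and 223 CPM in PC, and fell by 2.44 on the log2 scale. Of 23 semaphorin and plexin effectors, Dpysl3, of the collapsin response mediator family, rose by 3.20 and Mical2, an actin-oxidising enzyme, by 2.92. Of 26 netrin and Slit effectors, Pak1, a kinase downstream of Rac, rose by 3.35 and Ablim1, an actin-binding protein, by 2.80. No gene of these last 2 lists fell by edgeR. Each list had 3 genes lower in HC at an unadjusted p under 0.05, where 14.4% of all genes tested were, and DESeq2 called 2 and 3 lower, where it called 9.2% of all genes lower. For each gene called in these lists the HC and PC libraries did not overlap. The same held for 61% of all genes tested, and genes that pass the test tend to have such groups, so this adds no support.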

How the data were processed

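Sequencing measured RNA in 4 libraries of laser-cut mouse forelimb cartilage. The submitters' processing notes name Trimmomatic 0.36, kallisto 0.43.1 and the mm10 build. Each deposited table holds an estimated count and a TPM value for every transcript, per the file headers. No source used here gives the strand setting. Of 109282 transcripts, 107987 matched GENCODE M21 (GRCm38) by identifier, and both values were summed per gene.

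Estimated counts were rounded, filtered with filterByExpr, scaled with TMM and tested with edgeR 4.0.16 (R 4.3.3) as HC against PC over 16607 genes, with Benjamini-Hochberg adjustment and a threshold of 0.05. A gene rose or fell only where it passed. CPM uses the TMM factors. The SE comes from the coefficient and the F statistic. The code was tested on simulated data. DESeq2 1.42.0 and limma 3.58.1 gave alternatives, and sums and plots were made in Python 3.11.15 with matplotlib 3.10.9, pandas 2.3.3, SciPy 1.17.1 and NumPy 2.4.6. The floor of 3 counts covers counting error only.

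Described singly are genes that passed, genes whose mean TPM reached 10 in a group, and the 3 largest changes in each direction that did not pass. An exact permutation test of 2 against 2 libraries could not go below p = 0.333, so none is given. The genes and lists were chosen with earlier results of these data known.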

Additional observations from a re-analysis of the deposited data

How the results depend on the processing

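No paired analysis was possible because HC and PC share no replicate numbers. Depth limited the low genes, since 3 counts stood for 0.244 and 0.135 CPM in HC and 0.0872 and 0.0778 CPM in PC. The main 11 guidance genes higher and 1 lower in HC became 0 and 0 with library size alone (31 of 62 with an unadjusted p under 0.05), 0 and 0 with protein-coding transcripts only (33; chosen after seeing the data), 0 and 0 with limma on log2(TPM + 1) (29) and 0 and 0 on log2(TPM + 0.1) (26). The count was 7 higher with a length offset, 19 higher and 13 lower with DESeq2, 14 higher and 6 lower with no filter, and 12 higher and 2 lower with a minimum of 10 counts. Calls over all genes moved too, from 457 higher and 325 lower to 269 and 167 with the length offset. They were 963 and 965 of 24150 genes with no filter, and 562 and 401 of 16438 with the minimum of 10 counts. The guidance count was 11 and 1 with DESeq2's size factors and without mitochondrial genes and Gm10800. Leaving out 1 library, with the remaining 1 of its group assumed to vary like the other group, gave 10 to 20 higher and 1 to 21 lower. Without PC replicate 1 the 1 lower gene was Unc5c and not Ephb3, and 9 of the 11 higher were shared with the main result. The other pathway genes, 10 higher and 2 lower, became 0 and 0 with library size alone (38 of 94 with an unadjusted p under 0.05), with protein-coding transcripts only (41 of 93) and with limma (34 and 33), 25 and 13 with DESeq2, 15 and 6 with no filter, and 7 to 25 and 2 to 23 when 1 library was left out. Of genes that did not pass, Efnb1 changed sign to 0.14 without HC replicate 3 and 0.00 without PC replicate 1 (-0.68 to 0.14 over the 4 fits), Sema6a to 0.02 without HC replicate 4 (-0.62 to 0.02), and Plxna1 to 0.04 with the length offset. The other 28 genes described singly kept their direction under the 14 alternatives. The median log2 fold change of all genes was -0.04, and -0.29 with library size alone, -0.25 with no filter and -0.39 and -0.59 with limma, so changes there are read relative to these. The causes were not tested.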
